A study of Mus musculus with 2 samples.

Results

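The cluster of miR-183, miR-96 and miR-182 is a group of 3 miRNA hairpins made from a single primary transcript. Its expression was examined in small RNA libraries of bone marrow-derived macrophages (BMDMs). The members were taken by name as both arms of miR-183 and miR-182 and the 5p arm of miR-96, which gave 5 of the 1915 mature miRNA names counted. The BMDMs came from wild type C57/BL6 mice 8 weeks of age and were left unstimulated. The methods of the study describe marrow of adult male mice grown with L-cell conditioned medium and the removal of cells that did not adhere. There were 2 libraries, labelled biological replicates 1 and 2 of this single condition, with 7322969 and 8094314 miRNA counts, and whether each came from 1 mouse or from a pool was not given in the sources used here. The paper describes more libraries than these, and any further one was not analysed here.

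A miRNA hairpin is cut from its primary transcript by Drosha and then by Dicer, which leaves a short duplex of a 5p and a 3p arm. Usually 1 arm is kept by Argonaute and finds its targets mainly through the seed, bases 2 to 8 from its 5′ end. The cluster is known best from sensory organs, where photoreceptors and the hair cells of the inner ear express it strongly, and changes in the seed of miR-96 cause hearing loss in mice and in people. In the immune system miR-182 is known for its induction in activated helper T cells, where it lowers Foxo1.

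The mature sequences are shown because the 5p arms differ in abundance while their seeds are closely related, and the 3p arms for comparison. They are RefSeq sequences on GRCm38.p6, written 5′ to 3′ with the seed in capitals, and all 5 members had an entry.
miR-183-5p: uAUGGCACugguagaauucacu
miR-96-5p: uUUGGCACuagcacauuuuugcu
miR-182-5p: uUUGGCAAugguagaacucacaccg
miR-183-3p: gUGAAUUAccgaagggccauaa
miR-182-3p: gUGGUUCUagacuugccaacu

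The hairpins lie on the minus strand of chromosome 6, so the transcript is read from Mir183 (ENSMUSG00000065619.2, chr6:30169668-30169737) through Mir96 (ENSMUSG00000065586.1, chr6:30169446-30169551) to Mir182 (ENSMUSG00000076361.1, chr6:30165918-30165992). Mir183 and Mir96 are separated by 116 bases, and Mir96 and Mir182 by 3453 bases. In the GENCODE M21 annotation no other gene overlaps this stretch of 3820 bases. The nearest genes there are Rncr4, a non-coding RNA gene on the opposite strand 3155 bases away, and the protein-coding gene Nrf1, 12459 bases away. In RefSeq the 3 hairpins lie within the span of Mirc35hg, a long non-coding RNA gene from 30158640 to 30174125. The RefSeq hairpins follow with both mature arms in capitals, which places each counted arm in its stem.
Mir183: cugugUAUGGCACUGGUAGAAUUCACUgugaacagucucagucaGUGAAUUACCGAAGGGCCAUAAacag
Mir96: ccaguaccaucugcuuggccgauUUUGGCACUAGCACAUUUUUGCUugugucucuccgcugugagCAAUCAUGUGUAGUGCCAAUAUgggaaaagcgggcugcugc
Mir182: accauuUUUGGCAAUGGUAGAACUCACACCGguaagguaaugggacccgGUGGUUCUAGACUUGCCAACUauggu

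The 5p arms were compared base by base from their 5′ ends with no gaps. miR-183-5p and miR-182-5p were identical at 18 of 22 positions, and the differences from miR-183-5p to miR-182-5p were A2U, C8A, U17C and U22A. miR-96-5p matched miR-182-5p at 12 of 23 positions, with a single difference, C8A, among the first 8 bases. The 3 arms therefore share the letters UGGCA at bases 3 to 7, while each has a seed of its own. Of the 1915 names, 1623 had a RefSeq sequence, and these held 94.2% of the counts in replicate 1 and 93.4% in replicate 2. UGGCA stood at bases 3 to 7 in 4 of them (0.246%), the 3 arms of this cluster and miR-7022-5p. Those 4 names held 980 counts in replicate 1 and 1157 in replicate 2, of which miR-7022-5p contributed 0 and 1. No further name with a sequence carried the 7-base seed of miR-182-5p, miR-183-5p or miR-96-5p.

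The cluster held 0.0134% of miRNA counts in replicate 1 and 0.0143% in replicate 2, and most of its counts came from miR-182-5p. The authors normalized to the total of reads mapped to miRNAs, and levels are given here in the same way as reads per 1000000 miRNA counts (RpM), with 95% Wilson intervals. Counting error within each library is all that these intervals measure. Reads copied by PCR were not tagged with molecular identifiers and count as separate reads, so the intervals may be too narrow even for that. In such bulk libraries fewer cells of a type and less RNA per cell cannot be told apart. The 5 members together held 980 counts in replicate 1 and 1158 in replicate 2, a level of 138.4 ± 6.53 RpM (SD, n = 2). mmu-miR-182-5p made up 87.0% and 87.2% of these counts, mmu-miR-183-5p 12.4% and 11.6%, and mmu-miR-96-5p 0.510% and 1.04%.

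mmu-miR-182-5p had 853 counts in replicate 1 (116.5 RpM, interval 108.9 to 124.6) and 1010 counts in replicate 2 (124.8 RpM, interval 117.3 to 132.7). The intervals of both libraries overlapped, and the mean was 120.6 ± 5.87 RpM (SD, n = 2). It ranked 147 among all names by mean level, 150 of the 891 names with a count in replicate 1 and 139 of the 898 in replicate 2. miR-21a-5p, the most abundant miRNA of these libraries, held 2402-fold more counts than miR-182-5p in replicate 1 and 2060-fold more in replicate 2.

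mmu-miR-183-5p had 122 counts in replicate 1 (16.7 RpM, interval 14.0 to 19.9) and 134 counts in replicate 2 (16.6 RpM, interval 14.0 to 19.6). Both libraries thus gave nearly the same level, 16.6 ± 0.0743 RpM (SD, n = 2), and its rank by mean level was 269.

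mmu-miR-96-5p, the arm known for its part in hearing, had 5 counts in replicate 1 (0.683 RpM, interval 0.292 to 1.60) and 12 counts in replicate 2 (1.48 RpM, interval 0.848 to 2.59). These were the lowest counts among the 5p arms in either library. A count of 0 allows a limit of 3 counts, which is 0.410 RpM in replicate 1 and 0.371 RpM in replicate 2. This limit lay within the interval of replicate 1 and below that of replicate 2. The mean was 1.08 ± 0.566 RpM (SD, n = 2) at rank 508.

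The 3p arms were at or near 0. mmu-miR-183-3p had 0 counts in replicate 1 and 2 counts in replicate 2 (0.247 RpM, interval 0.0678 to 0.901). mmu-miR-182-3p had 0 counts in both libraries, and so did miR-96-3p, which is listed in the table but is not among the 5 members. Of the 5 members, 4 had at least 1 count and 3 reached the minimum of 10 counts summed over both libraries that was needed for a test between the libraries.

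**Figure D1:**
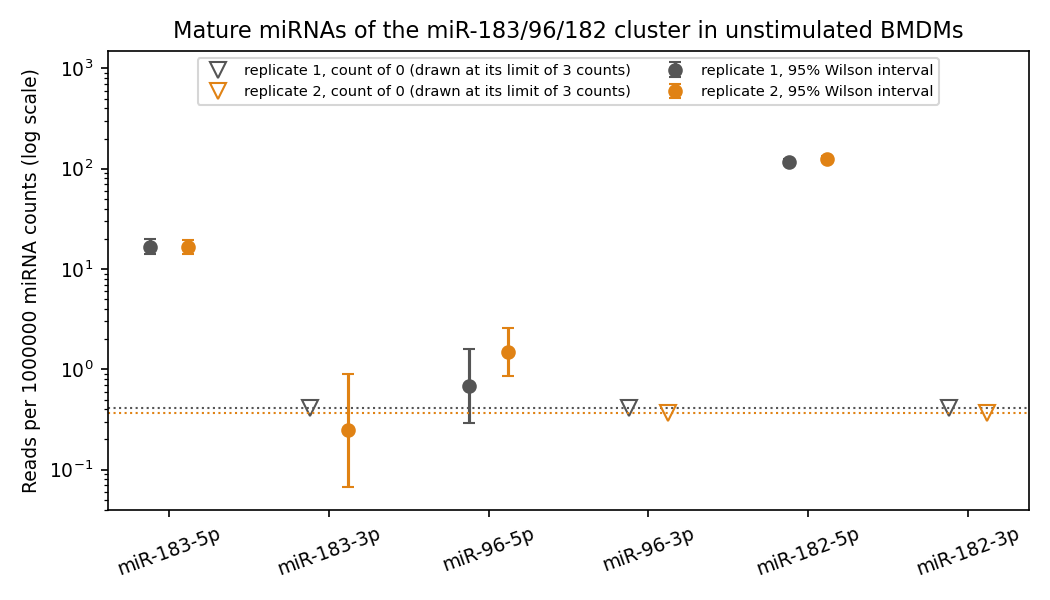
Level of each mature arm of the cluster, in reads per 1000000 miRNA counts on a log axis, in replicate 1 (grey) and replicate 2 (orange). Circles are measured values with 95% Wilson intervals, open triangles are counts of 0 drawn at their limit of 3 counts (dotted lines), and miR-182-5p lies at 116.5 and 124.8, above miR-183-5p at 16.7 and 16.6 and miR-96-5p at 0.683 and 1.48.

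In the order of all miRNAs by mean level, each 5p arm lay between names of nearly the same mean. The names next to miR-182-5p by mean level were miR-324-5p (122 RpM) and miR-15b-3p (120.8 RpM) above it and miR-3068-3p (120.6 RpM) and miR-350-5p (118.6 RpM) below it. Those next to miR-183-5p were miR-193a-3p (17.8 RpM) and miR-181c-3p (16.6 RpM) above and miR-1843b-3p (16.6 RpM) and miR-146a-3p (15.9 RpM) below. miR-96-5p shared its rank, with the same counts of 5 and 12, with miR-6951-5p. It stood between miR-615-3p (1.10 RpM) and miR-18b-5p (1.06 RpM), with miR-1955-3p (1.05 RpM) next below. These names were taken for their close means, and within a library some lay apart, such as miR-193a-3p with 204 and 63 counts against 122 and 134 for miR-183-5p and miR-324-5p with 1049 and 814 counts against 853 and 1010 for miR-182-5p.

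The levels most like those of miR-182-5p in both libraries, by Euclidean distance of log2 RpM over 776 names with a count in each of the 2 libraries, were those of miR-350-5p (distance 0.04), miR-3068-3p (0.09) and miR-152-5p (0.11). For miR-183-5p they were miR-181c-3p (0.05), miR-1843b-3p (0.05) and miR-146a-3p (0.11). With 2 libraries this likeness is mainly one of level.

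**Figure D2:**
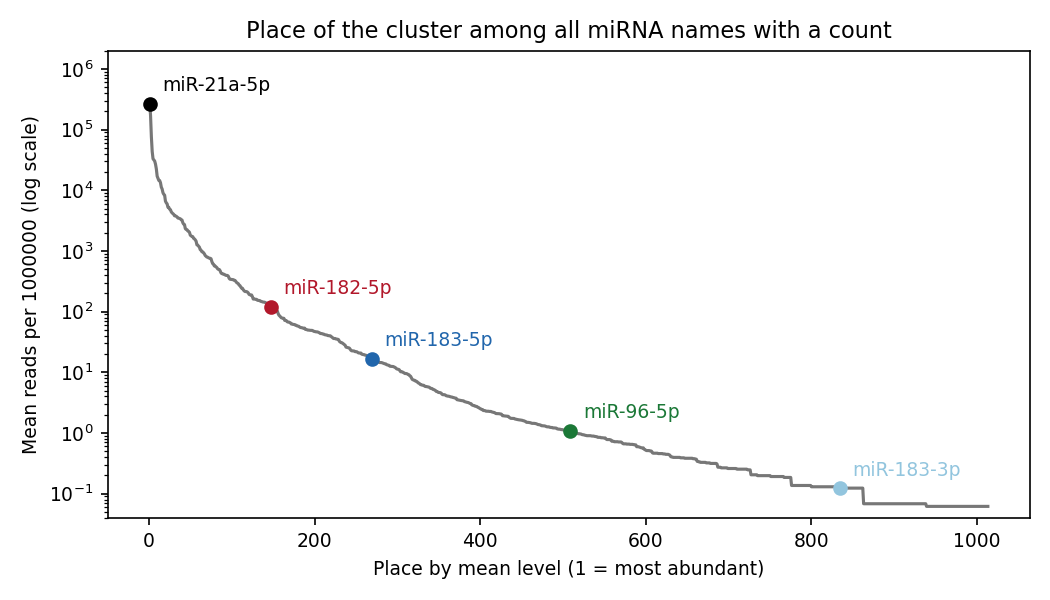
Mean reads per 1000000 (log axis) of every miRNA name with a count in either library against its place in the order of abundance. The points mark miR-21a-5p at the top, then miR-182-5p at rank 147, miR-183-5p at rank 269, miR-96-5p at rank 508 and miR-183-3p at rank 833.

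Although the hairpins share a transcript, their mature 5p arms differed widely, in the order miR-182-5p, miR-183-5p, miR-96-5p in both libraries. Ratios within a library need no scaling and are given with exact 95% Clopper-Pearson intervals. They are ratios of counts, and differences in ligation or PCR between sequences were not measured. miR-182-5p exceeded miR-183-5p 6.99-fold in replicate 1 (interval 5.78 to 8.52) and 7.54-fold in replicate 2 (6.29 to 9.09), with a mean of 7.26 ± 0.386 (SD, n = 2). The intervals lay far above equal counts in both libraries and overlapped between them.

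miR-183-5p exceeded miR-96-5p 24.4-fold in replicate 1 (interval 10.2 to 76.5) and 11.2-fold in replicate 2 (6.19 to 22.2). miR-182-5p exceeded miR-96-5p 170.6-fold in replicate 1 (72.8 to 526.8) and 84.2-fold in replicate 2 (48.0 to 163.4). The ratios to miR-96-5p differed about as much as its 5 and 12 counts did, and their intervals overlapped between the libraries. Pooling both libraries gave 109.6-fold (68.3 to 188.5) for miR-182-5p over miR-96-5p and 15.1-fold (9.22 to 26.3) for miR-183-5p over miR-96-5p. The hairpin in the middle of the cluster, Mir96, thus had the lowest counts, although only 116 bases separate it from Mir183.

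The ratios were set beside those of other miRNA clusters. For this, 955 RefSeq hairpins with a counted arm were grouped where they lay on the same strand with at most 10 kb between them, and each was represented by its main arm, the arm with more counts. Hairpins outside the RefSeq table used here were not analysed, so these are not all known clusters. Among 34 clusters with at least 2 main arms of 10 or more counts, the highest main arm exceeded the lowest 8.49-fold at the median. Among miR-183-5p, miR-96-5p and miR-182-5p this spread was 109.6-fold. It rests on the 17 counts of miR-96-5p, since miR-182-5p exceeded miR-183-5p 7.28-fold, below that median. Main arms with fewer than 10 counts were left out, so clusters with a lower partner were narrowed or not counted. All ranks of spread given here depend on that minimum, which miR-96-5p passed with 17 counts. By its spread over the arms kept, this cluster ranked 3. The clusters above it were miR-363 to miR-106a (6387-fold), in which miR-106a-5p had 15 counts and miR-92a-3p is also made from another hairpin, and miR-450b to miR-322 (120.8-fold), which lies within the interval of 68.3 to 188.5. Without main arms that several hairpins make or that have equal counts, an alternative chosen after seeing the data, the median was 5.87-fold over 20 clusters and this cluster ranked 2. With hairpins listed only by their mature arms added, also chosen after seeing the data, the median was 9.41-fold over 36 clusters and the rank 3. Among the 6 clusters with 3 main arms of 10 or more counts its spread was the widest, against a median of 9.41-fold. As single pairs, 10 of 94 (10.6%) differed by at least the ratio of miR-182-5p to miR-96-5p, 32 (34.0%) by at least that of miR-183-5p to miR-96-5p and 39 (41.5%) by at least that of miR-182-5p to miR-183-5p. In the alternative without arms of several hairpins or with equal counts, these were 2 of 48 (4.17%), 14 (29.2%) and 17 (35.4%). The pairs share hairpins and are given as a description.

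Whether the balance of the partners changed between the libraries was tested with Fisher's exact test, two-sided, on each pair of main arms, with Benjamini-Hochberg adjustment over all 94 pairs. None of the 3 pairs of this cluster was called at an adjusted p under 0.05, and 0 of 3 had an unadjusted p under 0.05, while 60.6% of all pairs were called. The adjusted p was 0.688 for miR-182-5p and miR-183-5p, 0.280 for miR-183-5p and miR-96-5p and 0.293 for miR-182-5p and miR-96-5p in Fisher's exact test. Both tests with miR-96-5p rest on its 17 counts (5 and 12), and that of miR-182-5p and miR-183-5p is limited by the 122 and 134 counts of miR-183-5p. Small differences pass more easily at high counts, and 68.4% of pairs with at least 100 counts summed were called. The share over all pairs is therefore no expected value for these 3. The test compares 2 libraries of 1 condition and covers counting error only.

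**Figure D3:**
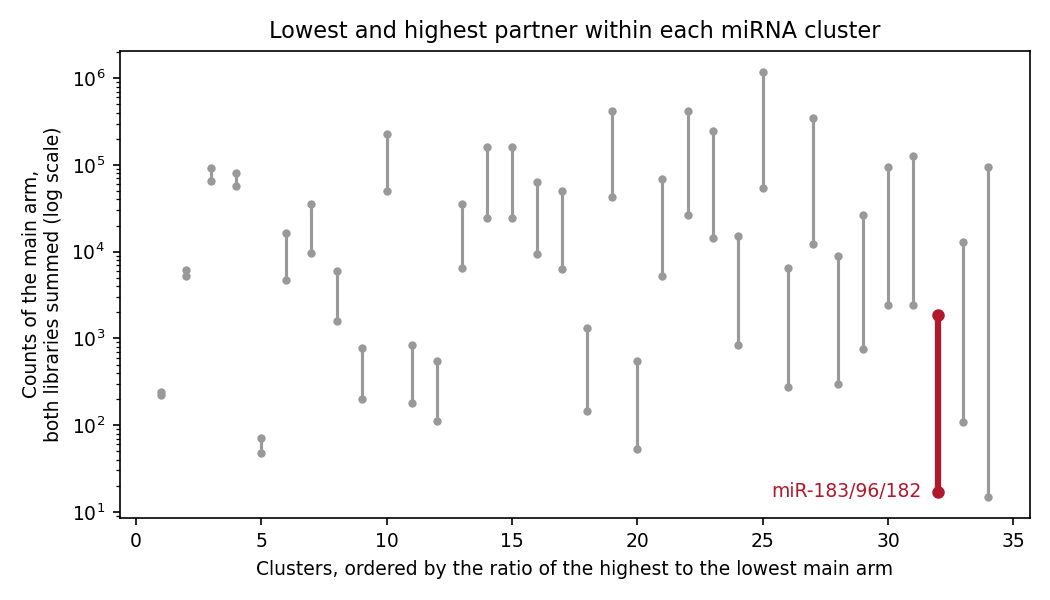
Counts of the lowest and the highest main arm of at least 10 counts, summed over both libraries (log axis), in each of 34 clusters, ordered by their ratio. The red bar is the cluster of miR-183, miR-96 and miR-182, which runs from 17 counts for miR-96-5p to 1863 for miR-182-5p.

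Counts of the 3 hairpins came almost wholly from their 5p arms. For miR-182 all 853 counts of both arms in replicate 1 and all 1010 in replicate 2 were 5p counts, so that the 5p arm was at least 284-fold higher than the 3p arm in replicate 1 and at least 337-fold higher in replicate 2, taking 3 counts per library as the limit of a count of 0. This allows a 3p share of up to 0.352% and 0.297%. For miR-183 the 5p arm held 122 of 122 counts in replicate 1, at least 40.7-fold more than the 3p arm. In replicate 2 it held 134 of 136 counts, a share of 98.5% (Wilson interval 94.8 to 99.6) and a ratio of 67 (exact interval 18.2 to 558.9). For miR-96 the 5 and 12 counts of the 5p arm against 0 of the 3p arm bound the ratio only at 1.67-fold and 4-fold.

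Of 176 hairpins with both arms listed and at least 100 counts, the main arm held 97.2% of the counts at the median, with quartiles of 85.4% and 99.5%. The 5p arm was the main arm in 98 of them (55.7%). No count of the other arm was found in 10 hairpins (5.68%), miR-182 included. A count of 0 is a limit, and 34 hairpins (19.3%) had a main arm share of at least the 99.6% that it allows for miR-182. Of the 10 hairpins only miR-143 had more counts (2319) than miR-182 (1863). The mean share of 99.3% ± 1.04 (SD, n = 2) of miR-183 was reached or exceeded by 50 hairpins (28.4%), itself included. Arm use was also compared between the libraries over all 176 hairpins by Fisher's exact test with Benjamini-Hochberg adjustment, which called 31.2% of them. Neither miR-182 nor miR-183 was called (0 of 2, and 0 of 2 at an unadjusted p under 0.05), with adjusted p = 1 and adjusted p = 0.721 in that exact test. With 0 and 2 counts of the 3p arms, no split between the libraries could have given a call, so this is no sign of equal arm use.

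The main arms also shared their first base. All 3 start with U, and their 3p arms start with G, C and G for miR-183, miR-96 and miR-182. Among 131 of the 176 hairpins that had RefSeq sequences for both arms, the main arm started with U in 51.1% and the other arm in 17.6%, and 42.7% had U on the main arm alone. A first base of U is known to favour loading into Argonaute. Its part in the arm use measured here was not tested.

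**Figure D4:**
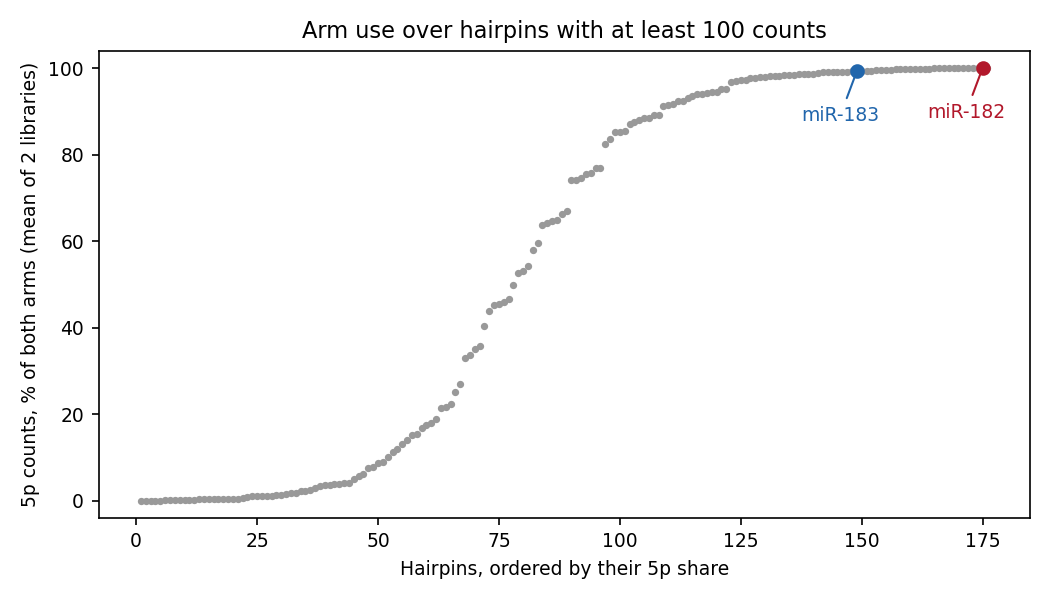
Share of the 5p arm among the counts of both arms (mean of 2 libraries, in percent) for 176 hairpins with at least 100 counts, ordered by that share. miR-182 at 100% and miR-183 at 99.3% lie at the upper end, and miR-96, with 17 counts, is not plotted.

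The level of each member was also compared between the replicates. Over the 588 names with at least 10 counts summed, Fisher's exact test with Benjamini-Hochberg adjustment called 44.2% different between the libraries at an adjusted p under 0.05 with library totals, 81 higher and 179 lower in replicate 2. Small differences pass this test more easily at high counts, so the share over all names is no expected value for a single member. Of the 3 members tested, 0 were called, and 0 had an unadjusted p under 0.05. The level in replicate 2 over that in replicate 1 was 1.07 (exact interval 0.977 to 1.17) for miR-182-5p, with adjusted p = 0.256 in Fisher's exact test. For miR-183-5p it was 0.994 (0.772 to 1.28), with adjusted p = 1 in the exact test. For miR-96-5p it was 2.17 (0.712 to 7.87), with adjusted p = 0.267 in the exact test, so that 5 and 12 counts could not be told from equal levels.

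For miR-182-5p the call depended on the scaling. The median log2 ratio of all names tested with a count in both libraries was -0.16 with library totals, -0.04 with edgeR's TMM and -0.02 with DESeq2 size factors. Relative to that median, the log2 ratio was 0.26 for miR-182-5p, 0.15 for miR-183-5p and 1.28 for miR-96-5p. With TMM, where 43.9% of names were called (120 higher and 138 lower), miR-182-5p was 1.17-fold higher in replicate 2 (exact interval 1.06 to 1.28, adjusted p = 0.00274 in Fisher's exact test). With DESeq2 size factors, where 42.7% were called (124 higher and 127 lower), it was 1.18-fold higher (1.08 to 1.30, adjusted p = 0.00097 in the exact test). miR-183-5p changed sign, from a log2 ratio of -0.01 with library totals to 0.12 with TMM and 0.14 with DESeq2 size factors, and was not called with any of the 3.

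**Figure D5:**
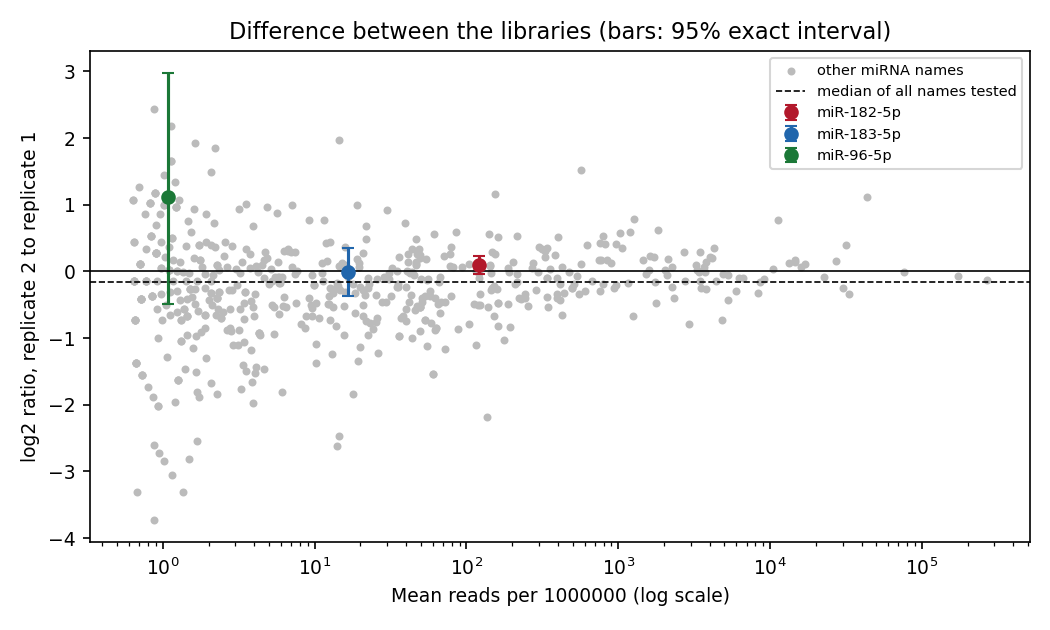
log2 ratio of replicate 2 to replicate 1 with library totals against mean reads per 1000000 (log axis) for names with at least 10 counts summed and a count in both libraries. Coloured points are miR-182-5p (0.10), miR-183-5p (-0.01) and miR-96-5p (1.12) with exact 95% intervals, the solid line is 0 and the dashed line the median of -0.16.

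The levels of miRNAs that mark cell types were set beside those of the cluster. Of the miRNAs listed as myeloid, miR-223-3p, miR-142a-3p, miR-142a-5p and miR-511-3p, 4 of 4 were above miR-182-5p, and none was at 0. Their summed level was 49536 RpM in replicate 1 and 37714 RpM in replicate 2. Most of it came from miR-142a-5p, with 37030 and 29252 RpM. Whether these miRNAs tell macrophages from other blood cells was not tested. All 4 were called lower in replicate 2 by Fisher's exact test, with library totals, TMM and DESeq2 size factors. Of all 588 names, 44.2% were called with library totals, 179 of them lower in replicate 2.

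Of 6 miRNAs known from neurons and sensory organs, where the cluster is abundant, 4 had 3 counts or fewer in each library. miR-124-3p, the defining miRNA of neurons, was at 0 in both, and miR-204-5p and miR-211-5p of the retina had 2 and 1 counts in replicate 1 and 2 and 3 in replicate 2. The summed level of 93.3 and 98.1 RpM came mainly from miR-7a-5p, with 668 and 776 counts. With library totals neither of the 2 tested, miR-7a-5p (adjusted p = 0.515 in the exact test) and miR-9-5p (adjusted p = 0.819 in the exact test), was called. miR-7a-5p was called higher in replicate 2 with TMM (adjusted p = 0.0266 in the exact test) and DESeq2 size factors (adjusted p = 0.0130 in the exact test).

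Of 7 epithelial miRNAs 0 were above miR-182-5p by mean level, and 6 had more than 3 counts in both libraries. Their summed level was 174.1 RpM in replicate 1 and 187.2 RpM in replicate 2. The most abundant was miR-200b-3p, a member of the miR-200 family that keeps epithelial cells from turning mesenchymal, with 496 and 827 counts, or 0.710 times the pooled counts of miR-182-5p. miR-141-3p had 433 and 348 counts, miR-429-3p 140 and 162, miR-200c-3p 114 and 87 and miR-200a-3p 71 and 76, while miR-203-3p had 20 and 15 and miR-205-5p of stratified epithelium 1 and 0. Of the 6 tested between the libraries, 3 were called with library totals, 1 higher and 2 lower in replicate 2, which is near the share of 44.2% over all names. miR-200b-3p was higher in replicate 2 (adjusted p = 1.28e-12 in Fisher's exact test, 5.08e-18 with TMM and 5.23e-19 with DESeq2 size factors). miR-141-3p was lower there (adjusted p = 3.44e-05 in the exact test, 0.00371 with TMM and 0.00735 with DESeq2 size factors), while the lower level of miR-200c-3p was called with library totals alone (adjusted p = 0.0261 in the exact test, 0.0994 with TMM and 0.135 with DESeq2 size factors).

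The markers of other cell types that marrow cultures could hold were mostly lower than miR-182-5p. In replicate 1 those of fibroblasts and smooth muscle had a summed level of 238.8 RpM, and in replicate 2 of 161.0 RpM. Among them 1 of 5, miR-143-3p, was above miR-182-5p by mean level, with 1370 counts against 853 in replicate 1 but 949 against 1010 in replicate 2. Of these 5, miR-143-3p and miR-214-3p were called lower in replicate 2 with library totals, TMM and DESeq2 size factors, a share near the 44.2% of all names called with library totals. miR-150-5p of lymphocytes had 202 and 88 counts, a log2 ratio of -1.34 that was called lower with each of the 3 scalings. miR-126a-3p of endothelium and megakaryocytes had 103 and 88 counts and was not called with any of them. The erythroid miR-451a and miR-144-3p together reached 1.23 and 0.988 RpM. miR-122-5p of hepatocytes was at 0, as were miR-1a-3p and miR-206-3p of skeletal muscle, where miR-133a-3p had 0 and 6 counts. The part of other cell types in the counts of miR-182-5p, miR-183-5p and miR-96-5p was not tested.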

How the data were processed

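The authors trimmed the small RNA reads of both libraries, aligned them to miRBase stem-loops with Bowtie and deposited raw counts per mature miRNA. The miRBase release, the mismatches allowed and the treatment of reads with several matches were not given in the sources used here. Such reads could be shared by miR-182-5p and miR-183-5p, which are identical at 18 of 22 positions, and this was not tested. The submitters' processing notes list DESeq2 without a role.

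Shares of the library total were computed from these counts. With 1 condition there were no groups to test, and p-values compare 2 libraries. Fisher's exact tests (scipy 1.17.1) of names, hairpin arms and cluster pairs were tested on simulated data and adjusted over all names, hairpins or pairs. Other scalings came from edgeR 4.0.16 (TMM) and DESeq2 1.42.0 in R 4.3.3. Sequences and hairpin positions were matched by name to RefSeq (GRCm38.p6), and an arm that RefSeq does not list by the root of its name.

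The members and lists were chosen with earlier results of these data known. Named miRNAs were the members, the other arm of miR-96, the 2 names on either side of each 5p arm in mean level, the 3 nearest in level to miR-182-5p and to miR-183-5p, names sharing a whole seed, miR-21a-5p and the listed markers. miR-7022-5p, the miR-143 hairpin and the miRNAs of the clusters from miR-363 to miR-106a and from miR-450b to miR-322 were chosen after their values were seen.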

Additional observations from a re-analysis of the deposited data

How the results depend on the processing

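Levels moved by less than 1 SD with the total limited to names of at least 10 counts per library. Partner ratios did so with both arms summed. Pooled reads moved levels, partner ratios and arm shares by less than 1 SD, but a pooled value must lie between those of both libraries. Leaving out 1 of 2 libraries likewise cannot move a mean by 1 SD, so neither is a sign of stability. Taking miR-21a-5p out of the total raised the levels, by construction, to 164.8 RpM for miR-182-5p, 22.7 RpM for miR-183-5p and 189.2 RpM for the 5 members together. The log2 ratio of miR-182-5p between the libraries passed the threshold at 0.22 with TMM and 0.24 with DESeq2 size factors, and that of miR-183-5p reversed to 0.12 and 0.14, by construction, since either scaling shifts every log2 ratio alike. Filters on low counts changed no call among miR-182-5p, miR-183-5p and miR-96-5p where they gave a value. miR-96-5p and both 3p arms gave none with at least 10 counts per library. The alternatives called 243 to 258 names against 260, and 51 to 52 hairpins against 55. The pairs of cluster partners called were 57 of 94, 52 to 62 in the alternatives planned, and 66 (63.5% of those tested) with hairpins listed only by their mature arms, chosen after seeing the data. Without main arms that several hairpins make or that have equal counts, also chosen then, they were 26 of 48 (54.2%), with fewer pairs tested. Depth limits miR-96-5p and the 3p arms. No paired analysis was possible because only 1 condition was sampled.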
